A study of Oryza sativa Japonica Group with 12 samples.

Results

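The genes by which rice takes up iron from soil, or makes the chelator for it, were described across 3 *japonica* parents and their F1 hybrids. They are 6, the nicotianamine aminotransferase gene *NAAT1*, the nicotianamine synthase genes *NAS1*, *NAS2* and *NAS3*, the ferrous iron transporter gene *IRT1* and the transporter gene *YSL15*. The 6 were found by symbol or synonym in the gene annotation, in a series where 23837 genes have a probe set of their own. *NAAT1* entered because it stood out between ‘CH7’ and ‘CH8’ on these same arrays, so its differences in comparisons that hold ‘CH7’, ‘CH8’ or ‘CH7/8’ are given as a description with no test. Of the 6, 5 have 1 probe set each. *IRT1* has none of its own, since the only probe set listed for it, 15935913, is listed for *IRT2* as well, and that signal is assigned to neither gene.

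The series was made to study hybrid weakness, the poor growth of F1 plants. Its parents were temperate *japonica* varieties. ‘CH7’ is Aranghyangchalbyeo, ‘CH8’ is the variety Sanghaehyangheolua and ‘CH9’ is Shinseonchalbyeo, while ‘CH7/8’, ‘CH7/9’ and ‘CH8/9’ were the F1 hybrids between them. Plants of every line were raised alike in a greenhouse with no iron treatment and taken whole at tillering. Each line had 2 Affymetrix arrays, 12 in all, each from 1 plant. Whole plants were cut up together, so the shares of root and shoot in each RNA are unknown, and fewer cells of a type cannot be told apart from less RNA per cell.

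Grasses acquire ferric iron by chelation. They make nicotianamine from S-adenosylmethionine through nicotianamine synthase, convert it through nicotianamine aminotransferase and a reductase to deoxymugineic acid, and release this from the root. The ferric complex is taken back into root cells by YSL15. Rice, a plant of flooded soils, also takes up ferrous iron directly through IRT1. Nicotianamine itself binds metals inside the plant and moves with them in the phloem. The genes of this route are known in rice for their strong response to iron shortage in roots.

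Most of the route gave low signal on these arrays, and *NAAT1* was the exception. Array medians over all 54922 probe sets lay between 3.45 and 3.64 in log2 intensity, with first quartiles between 2.25 and 2.51 and upper quartiles between 5.28 and 5.47. *NAAT1* lay above the median on 12 of 12 arrays and above the upper quartile on 10. *YSL15* lay below the first quartile on 12 arrays, *NAS3* on 11 and *NAS1* on 10. *NAS2* lay below it on 0 arrays but above the median on only 1. A low position on an array does not show that a transcript is absent, because probe sets differ in how well they bind.

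**Figure D1:**
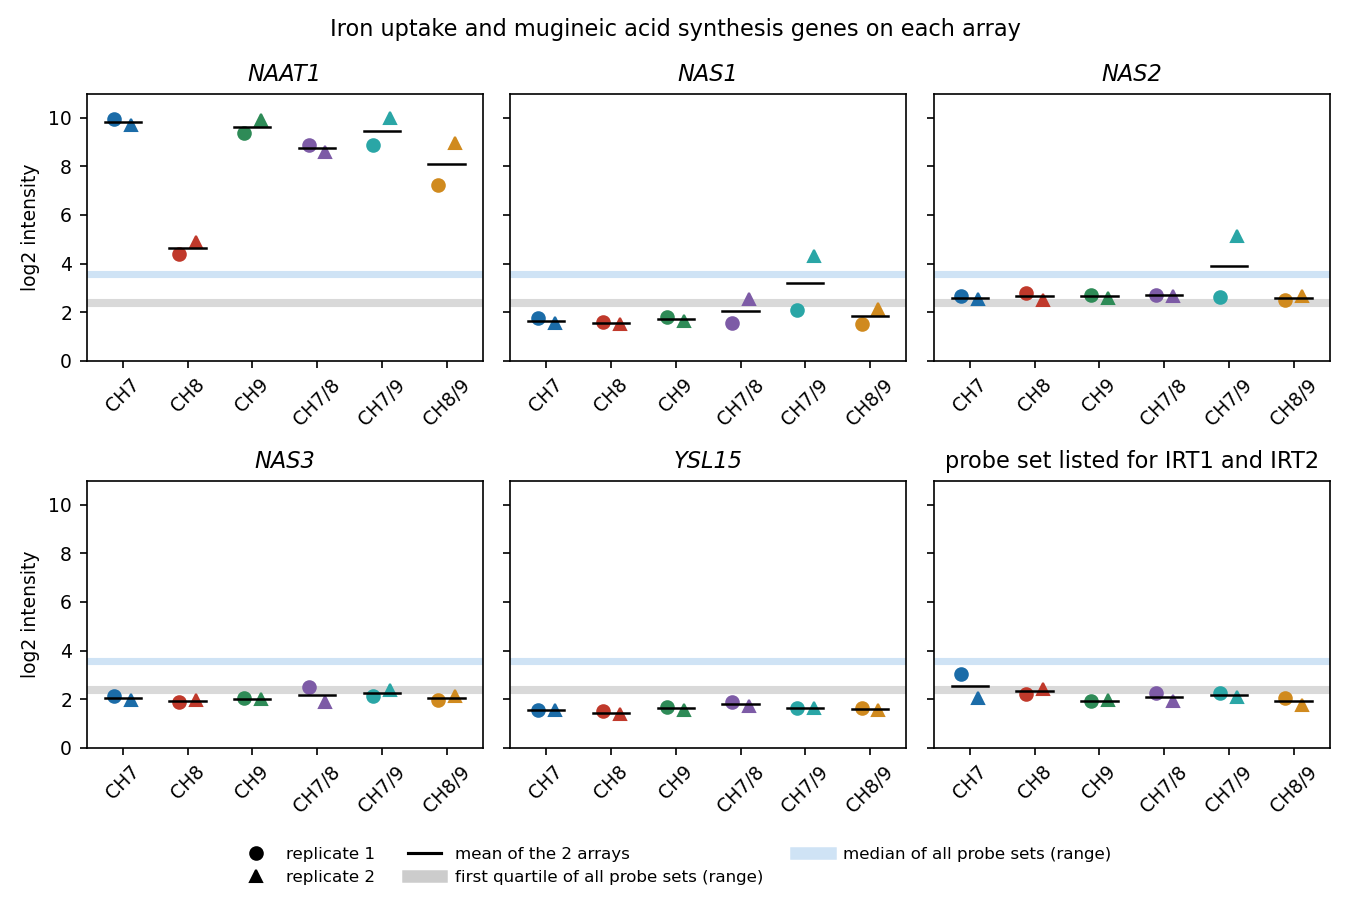
Log2 intensity of the 5 genes with a probe set of their own, and of the probe set listed for both *IRT1* and *IRT2*, on each of 12 arrays (circles, replicate 1; triangles, replicate 2; black lines, means of 2 arrays; grey and blue bands, range over arrays of the first quartile and the median of all probe sets). *NAAT1* is low in ‘CH8’ alone, and *NAS1* and *NAS2* stand at or below 2.80 except for *NAS1* and *NAS2* on ‘CH7/9’ replicate 2, at 4.30 and 5.14.

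The synthases come first in the route. They join S-adenosylmethionine units into nicotianamine. *NAS1* and *NAS2* are neighbours on chromosome 3, 1556 bases apart, whereas *NAS3* is on chromosome 7. The log2 intensity of *NAS1* was 1.75 and 1.55 in ‘CH7’, 1.59 and 1.52 in ‘CH8’, 1.79 and 1.64 in ‘CH9’, 1.56 and 2.54 in ‘CH7/8’, 2.08 and 4.30 in ‘CH7/9’, and 1.5 and 2.14 in ‘CH8/9’. One array, ‘CH7/9’ replicate 2, stood 1.77 above the next highest. That of *NAS2* was 2.67 and 2.53 in ‘CH7’, 2.80 and 2.52 in ‘CH8’, 2.70 and 2.60 in ‘CH9’, 2.72 and 2.68 in ‘CH7/8’, 2.64 and 5.14 in ‘CH7/9’, and 2.52 and 2.66 in ‘CH8/9’. The same array was the highest, by 2.34, and the other 11 spanned 2.52 to 2.80. The other ‘CH7/9’ plant read 2.64 for *NAS2*, within the range of the other lines. The sequences of *NAS1* and *NAS2* are close copies, so part of either signal can come from the other transcript.

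The comparisons of *NAS1* and *NAS2* rested on that 1 plant. ‘CH7/9’ minus ‘CH9’ was 1.48 (standard error 0.61, adjusted p = 0.405 from limma) for *NAS1* and 1.24 (standard error 0.61, adjusted p = 0.469) for *NAS2*. Without ‘CH7/9’ replicate 2 these became 0.37 and −0.015. Without ‘CH7/9’ replicate 1 they became 2.59 and 2.49, with the lone remaining array assumed to vary like the other lines. That fit also drops the spread within ‘CH7/9’ (SD 1.57 for *NAS1* and 1.77 for *NAS2*), so its p-values are not given. ‘CH8/9’ minus ‘CH7/9’ was −1.37 for *NAS1* (adjusted p = 0.253 from limma) and −1.30 for *NAS2* (adjusted p = 0.271). These moved to −0.26 and −0.051 without ‘CH7/9’ replicate 2, and to −2.48 and −2.55 without replicate 1. The array ‘CH7/9’ replicate 2 stood apart elsewhere as well. At 169 probe sets it was at least 2-fold above every other array and at 207 at least 2-fold below, whereas the other arrays had 6 to 68 above and 2 to 33 below, except ‘CH8’ replicate 2 with 315 and 110. It also had the highest first quartile, 2.51. The part of this in the *NAS1* and *NAS2* values was not tested. Over the 12 arrays *NAS1* and *NAS2* correlated with Pearson's r = 0.92, and over the 11 arrays without this one with r = 0.28.

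*NAS3*, the remaining synthase gene, stayed low in every line. Its log2 intensity was 2.13 and 1.98 in ‘CH7’, 1.90 and 1.98 in ‘CH8’, 2.03 and 1.99 in ‘CH9’, 2.49 and 1.88 in ‘CH7/8’, 2.11 and 2.39 in ‘CH7/9’, and 1.96 and 2.11 in ‘CH8/9’. All 12 values lay between 1.88 and 2.49.

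*NAAT1* encodes the aminotransferase that acts on nicotianamine, the first step from which mugineic acids arise. Its probe set is 15898214 and its gene lies on chromosome 2. On the linear scale its intensity was 981 and 828 in ‘CH7’, 20.8 and 30.0 in ‘CH8’, 654 and 952 in ‘CH9’, 478 and 383 in ‘CH7/8’, 478 and 1025 in ‘CH7/9’, and 151 and 504 in ‘CH8/9’. Both ‘CH8’ arrays lay below all 10 others, with the nearest, ‘CH8/9’ replicate 1, at 151. In log2 intensity the lines ran, from high to low, ‘CH7’ (9.82 ± 0.17, SD, n = 2 arrays), ‘CH9’ (9.62 ± 0.38), ‘CH7/9’ (9.45 ± 0.78), ‘CH7/8’ (8.74 ± 0.23), ‘CH8/9’ (8.11 ± 1.23) and ‘CH8’ (4.64 ± 0.37). The neighbours ‘CH7’ and ‘CH9’ overlapped, as did ‘CH9’ and ‘CH7/9’, and ‘CH7/8’ and ‘CH8/9’. The lower ‘CH7/9’ array and the higher ‘CH7/8’ array were both at 8.90. Only the step from ‘CH8/9’ down to ‘CH8’ exceeded the spread of both neighbours.

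Among the parents, the *NAAT1* signal of ‘CH9’ was close to that of ‘CH7’ and far from that of ‘CH8’. The study reports more differences from the reference genome in ‘CH8’ than in ‘CH7’ or ‘CH9’. Whether any of them affects binding to the *NAAT1* probe set was not tested. As descriptions from the fit, ‘CH8’ minus ‘CH7’ was −5.17 in log2 intensity, ‘CH9’ minus ‘CH8’ was 4.98 and ‘CH9’ minus ‘CH7’ was −0.19, each with a standard error of 0.54. The hybrids that have ‘CH8’ as a parent did not carry its low level. ‘CH7/8’ exceeded ‘CH8’ by 4.10 and ‘CH8/9’ exceeded it by 3.47. Their means lay below those of their other parents, since ‘CH7/8’ minus ‘CH7’ was −1.08 and ‘CH8/9’ minus ‘CH9’ was −1.52. In both cases the arrays of hybrid and parent did not overlap, which carries little weight with 2 arrays a line. Those of *YSL15* in ‘CH8’ and ‘CH7’ did not overlap either, at a difference of only −0.11. The hybrid without ‘CH8’ as a parent, ‘CH7/9’, differed from ‘CH7’ by −0.36 and from ‘CH9’ by −0.17, with overlapping arrays. These comparisons share parents, so they are not independent of each other.

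The 3 comparisons among ‘CH9’, ‘CH7/9’ and ‘CH8/9’ did not enter the choice of *NAAT1* and were tested with limma over all probe sets. A gene was called at a difference of at least 2-fold with an adjusted p no higher than 0.05. In ‘CH7/9’ against ‘CH9’, 0 of the 5 genes were called, and 0.0346% of all probe sets. In ‘CH8/9’ against ‘CH9’, 0 of 5 were called, and 0.1% of all probe sets. In ‘CH8/9’ against ‘CH7/9’, 0 of 5 were called, and 1.82% of all probe sets. At an unadjusted p below 0.05 there was 1 gene in each comparison, *NAS1* in the first and *NAAT1* in the other two. For *NAAT1* the adjusted p was 0.918 in ‘CH7/9’ against ‘CH9’, 0.736 in ‘CH8/9’ against ‘CH9’ and 0.218 in ‘CH8/9’ against ‘CH7/9’, where the difference was −1.34. With 2 arrays a line and a standard error of 0.54, a difference of this size was not resolved. Single plants moved these values. ‘CH8/9’ minus ‘CH7/9’ was −0.47 without ‘CH8/9’ replicate 1, −2.21 without ‘CH8/9’ replicate 2, −1.89 without ‘CH7/9’ replicate 1 and −0.79 without ‘CH7/9’ replicate 2. ‘CH8/9’ minus ‘CH9’ was −0.65 without ‘CH8/9’ replicate 1 and −2.39 without replicate 2. The p-values measure the spread between single plants of a line.

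**Figure D2:**
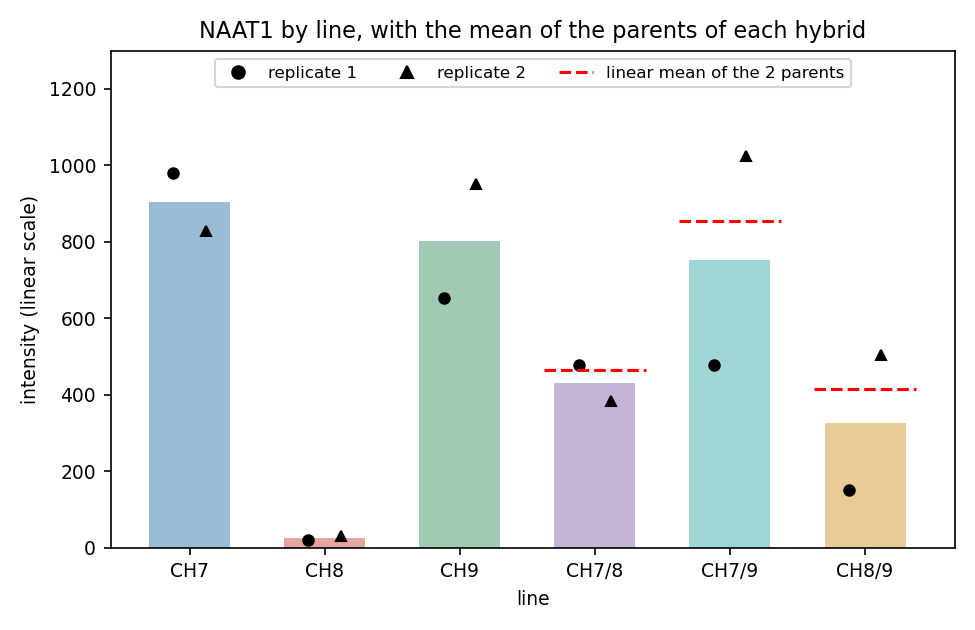
*NAAT1* intensity on the linear scale in each line (bars from 0, means of 2 arrays; circles, replicate 1; triangles, replicate 2), with the linear mean of the 2 parents of each hybrid as a dashed line. The mean of each hybrid stands below its dashed line, at 92.5%, 88.0% and 79.0% of it, and in each hybrid 1 array is above the line and 1 below.

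On the linear scale the mean *NAAT1* level of each hybrid was set beside the mean of its parents, as a description. ‘CH7/8’ averaged 430 against a mid-parent value of 465, which is 92.5% of it (103% and 82.3% in its 2 plants). ‘CH7/9’ averaged 752 against 854, or 88.0% (55.9% and 120%). ‘CH8/9’ averaged 327 against 414, or 79.0% (36.4% and 122%). In each hybrid 1 plant lay above the mid-parent value and 1 below, and the plants of ‘CH7/9’ and ‘CH8/9’ lay far apart. On the log2 scale the same hybrids stood 1.51, −0.27 and 0.97 from the mean of the parental logs, so the reading of ‘CH7/8’ and ‘CH8/9’ as intermediate or as nearer to the high parent depends on the scale. Intensity is also not strictly proportional to transcript number at the ends of its range.

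The uptake genes gave no comparable pattern. *YSL15*, on chromosome 2, encodes the plasma membrane transporter of the ferric complex. Its log2 intensity was 1.56 and 1.55 in ‘CH7’, 1.51 and 1.39 in ‘CH8’, 1.68 and 1.56 in ‘CH9’, 1.86 and 1.73 in ‘CH7/8’, 1.63 and 1.63 in ‘CH7/9’, and 1.64 and 1.56 in ‘CH8/9’. Its 12 values spanned 1.39 to 1.86, the lowest in ‘CH8’ and the highest in ‘CH7/8’, all at the bottom of their arrays. The probe set listed for *IRT1* and *IRT2* read 3.02 and 2.03 in ‘CH7’, 2.22 and 2.43 in ‘CH8’, 1.91 and 1.95 in ‘CH9’, 2.27 and 1.94 in ‘CH7/8’, 2.27 and 2.1 in ‘CH7/9’, and 2.05 and 1.76 in ‘CH8/9’. It lay below the first quartile on 10 of 12 arrays, and its highest value, 3.02, was in 1 ‘CH7’ plant and not in the other. Pearson's r of *NAAT1* with the other 4 genes over 12 arrays was between 0.25 and 0.45, and that of *NAS3* was 0.55 with *NAS2* and 0.51 with *YSL15*. With most of these values at the bottom of the arrays, nothing is read from these correlations.

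The named genes whose signal ran most like that of *NAAT1* were *BADH2*, *ZIP8*, *HO2*, *OGR1* and *MRS2-C*. They were taken from 2049 named genes by Pearson's r over the 12 arrays. *BADH2*, the betaine aldehyde dehydrogenase gene known from fragrant rice, had r = 0.97. *ZIP8*, a zinc transporter gene of the family of *IRT1*, had r = 0.94. *HO2*, a heme oxygenase gene, had r = 0.93. *OGR1*, which encodes a protein of organelle RNA editing, and *MRS2-C*, of a magnesium transporter family, each had r = 0.90. All 5 were lowest in ‘CH8’, as were 22.5% of all probe sets. Their low place there follows largely from how they were picked, since *NAAT1* itself was lowest in ‘CH8’. Over the 10 arrays without ‘CH8’, r became 0.82, 0.88, 0.71, 0.70 and 0.47, lower for each gene. Correlations over arrays also carry what the arrays share, such as organ shares and line, and they are given as a description.

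**Figure D3:**
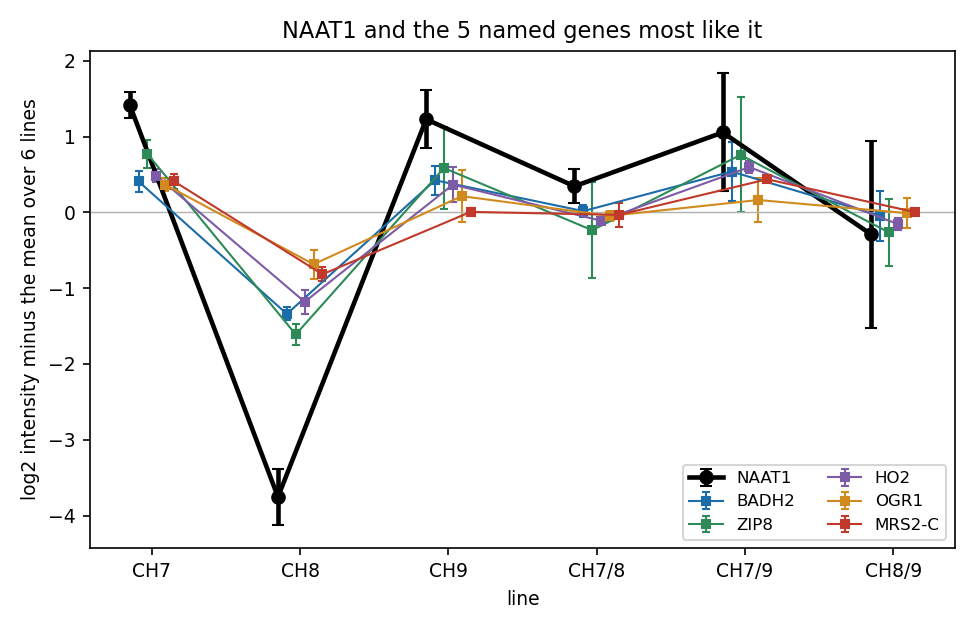
Line means of log2 intensity minus the mean over the 6 lines, for *NAAT1* (black) and the 5 named genes most like it (bars, SD of 2 arrays; lines only join the points of a gene). All 6 genes are lowest in ‘CH8’, where *NAAT1* averages 4.64, and the swing of *NAAT1* is the widest of these 6. The 5 were picked for likeness over arrays that include ‘CH8’.

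The rest of the iron and zinc route was read from a list of 45 other genes with a probe set of their own. The list was drawn up with earlier results of these arrays known, so its p-values and counts are not independent of that choice. It holds 5 genes of methionine recycling, which feeds nicotianamine synthesis, 4 of uptake, 20 of transport within the plant, 2 of vacuolar storage, 2 regulators and 12 of the ZIP family and zinc transport. Of the other mugineic acid synthesis genes, 6 names were listed and 0 matched a gene. Of 5 names listed for its efflux, 3 matched no gene, and 2 matched genes that were left out as having another function. Of the 45, 24 lay above the array median on all 12 arrays and 3 below the first quartile on all 12. The highest means in their groups were those of *ARD4* (methionine recycling), *YSL16* (uptake), *YSL14* (transport), *VIT1* (storage), *IDEF1* (regulators) and *MTP1* (zinc group).

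Between the parents ‘CH8’ and ‘CH7’, the transporter genes *ZIP8* and *YSL13* were lower in ‘CH8’, and these 2 of 45 (4.44%) were the ones called, against 3.69% of all probe sets in either direction and 2.1% lower. That share is near the background, in a list drawn up with earlier results of ‘CH8’ and ‘CH7’ known. *ZIP8* read 8.20 and 7.94 in ‘CH7’ and 5.59 and 5.79 in ‘CH8’, a difference of −2.38 (standard error 0.43, adjusted p = 0.0198 from limma). *YSL13*, of the yellow stripe family, read 8.84 and 8.80 in ‘CH7’ and 6.64 and 7.36 in ‘CH8’, a difference of −1.82 (standard error 0.40, adjusted p = 0.0385). In both the groups did not overlap, which carries little weight with 2 arrays a line. Those of *ARD4* did not overlap either, at a difference of only −0.24. *ZIP8* lost its call without any 1 of the 4 arrays of ‘CH7’ and ‘CH8’ (adjusted p between 0.0652 and 0.137), and *YSL13* was no longer called when 1 array was left out, unless that array was of ‘CH7/8’ (adjusted p between 0.0597 and 0.192). *YSL13* also lost its call in a fit of the compared lines alone (adjusted p = 0.0588 from limma).

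Over the 45 genes this difference had a median of −0.19, with 31 below 0. Over all 54922 probe sets the median was −0.048, with 30991 below 0. The ZIP family and zinc group lay lowest, with a median of −0.72 and 11 of 12 genes below 0. At an unadjusted p below 0.05 there were 7 of these 12 genes, 14 of the 45 and 11317 of all 54922 probe sets. Genes outside the call, named after their values were seen, were *ZIP9* at −2.54 (standard error 1.01, adjusted p = 0.194), *ZIP4* at −2.1 (0.78, 0.169), *ZIP2* at −1.55 (0.40, 0.0632) and *HMA2*, a zinc and cadmium ATPase gene of the vasculature, at 1.67 (0.42, 0.0589). Of the methionine recycling genes 4 of 5 were below 0 with a median of −0.028 and 0 called, and of the 4 uptake genes 4 were below 0 with a median of −0.41 and 0 called. Of the 20 transport genes 9 were above and 11 below 0. The regulators *IRO3* and *IDEF1* stood at 0.61 and 0.45 and were not called. The annotation entry of *IRO3* also carries the name *IRO2*, and that of *ZIP8* also the name *ZIP1*.

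**Figure D4:**
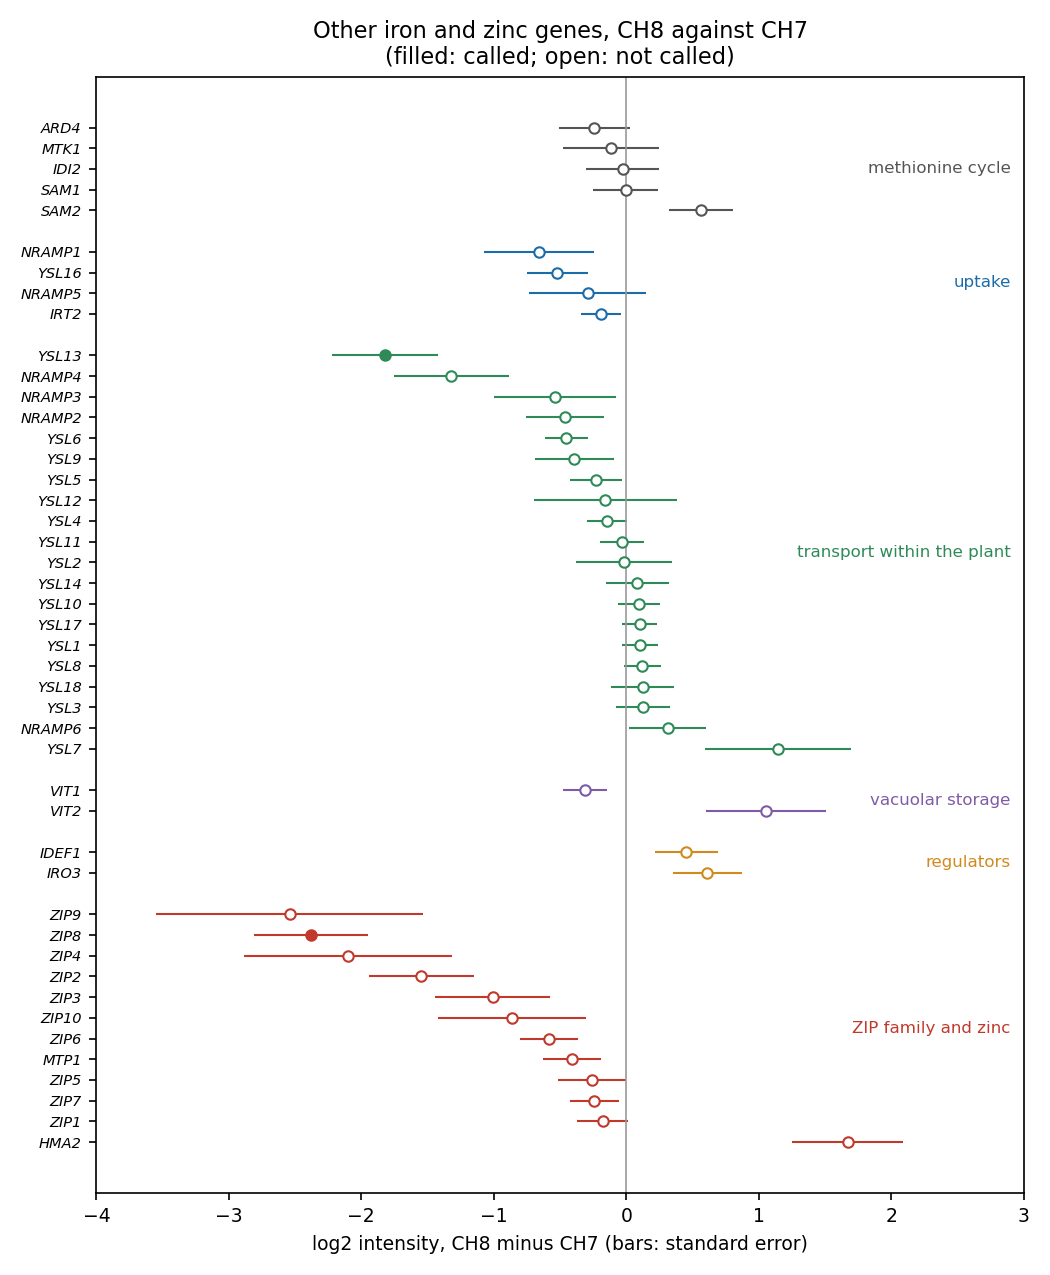
Log2 intensity of ‘CH8’ minus ‘CH7’ for the 45 other iron and zinc genes, grouped by role (points, limma estimates; bars, standard errors; filled points, called). *YSL13* at −1.82 and *ZIP8* at −2.38 are the filled points, and 11 of the 12 genes of the zinc group lie left of 0. Of all 54922 probe sets, 30991 are below 0.

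In the other 8 comparisons 0 of the 45 genes were called by limma. The share of all probe sets called was 0.375% in ‘CH9’ against ‘CH7’, 0.586% in ‘CH9’ against ‘CH8’, 0.228% in ‘CH7/8’ against ‘CH7’, 0.106% in ‘CH7/8’ against ‘CH8’, 0.0473% in ‘CH7/9’ against ‘CH7’ and 0.151% in ‘CH8/9’ against ‘CH8’, with those of ‘CH7/9’ and ‘CH8/9’ against ‘CH9’ given above. At an unadjusted p below 0.05 there were between 1 (2.22%, in ‘CH9’ against ‘CH7’) and 7 of the 45 (15.6%, in ‘CH8/9’ against ‘CH8’), where all probe sets gave 12.6% and 9.13%. Over the 8 comparisons the share of all probe sets was between 6.47% and 12.6%. *ZIP8* read 7.50 and 8.27 in ‘CH9’, and its difference from ‘CH8’ there was 2.2 (standard error 0.43, adjusted p = 0.079). In the hybrids it read 7.51 and 6.62 in ‘CH7/8’, 7.52 and 8.59 in ‘CH7/9’ and 6.72 and 7.35 in ‘CH8/9’. As for *NAAT1*, both ‘CH8’ arrays of *ZIP8* were below all 10 others. *ZIP8* was named for its call in ‘CH8’ against ‘CH7’ and its likeness to *NAAT1*, so this follows largely from its choice. Of the 12 genes of the zinc group, 9 had their lowest line mean in ‘CH8’, as did 22.5% of all probe sets, and no test was made of this count.

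*ZIP3*, another zinc transporter gene, had a different order and was named after its values were seen. It read 4.78 and 4.32 in ‘CH7/8’ and 4.06 and 4.55 in ‘CH8/9’, above every array of the other 4 lines. Those were 2.70 and 3.43 in ‘CH7’, 2.1 and 2.02 in ‘CH8’, 2.70 and 1.60 in ‘CH9’, and 3.37 and 2.40 in ‘CH7/9’. Both hybrids with ‘CH8’ as a parent thus exceeded both of their parents. The differences did not pass the test. They were 1.48 for ‘CH7/8’ against ‘CH7’ (standard error 0.44, adjusted p = 0.254 from limma), 2.49 against ‘CH8’ (0.146), and for ‘CH8/9’ 2.25 against ‘CH8’ (0.150) and 2.16 against ‘CH9’ (0.289).

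**Figure D5:**
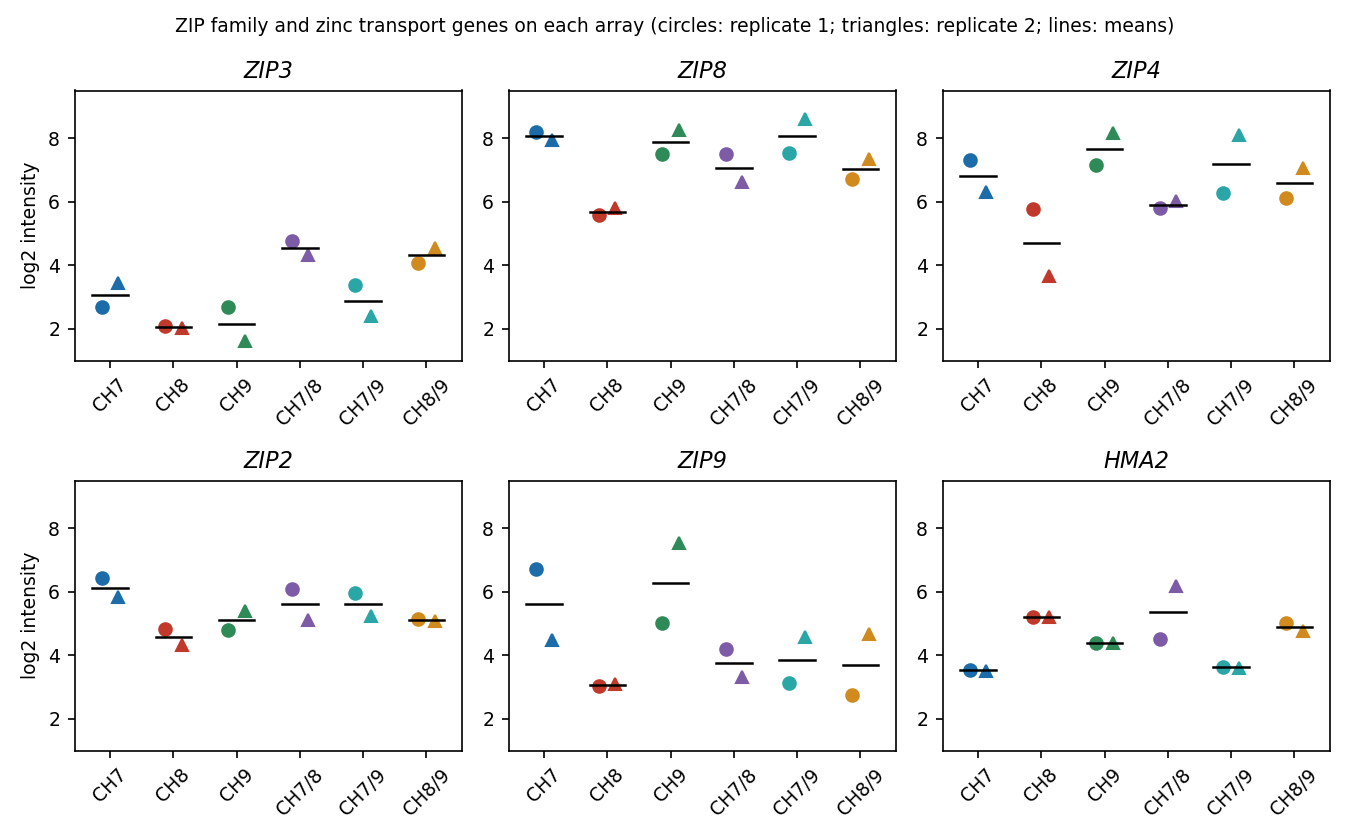
Log2 intensity of *ZIP3*, *ZIP8*, *ZIP4*, *ZIP2*, *ZIP9* and *HMA2* on each array (circles, replicate 1; triangles, replicate 2; black lines, means of 2 arrays). The *ZIP3* arrays of ‘CH7/8’ and ‘CH8/9’ are the 4 highest for that gene, from 4.06 to 4.78, and the ‘CH8’ arrays of *ZIP8* are the 2 lowest, at 5.59 and 5.79.

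Organ markers were read beside these values, because mugineic acid genes are known from roots. Of 10 root genes, *NRT2.1*, *NRT2.2* and *AMT1-2* were below the first quartile on all 12 arrays. By limma 0 of the 10 root and 6 leaf genes were called in any of the 9 comparisons. At an unadjusted p below 0.05 there were at most 2 root genes (20%, in ‘CH8’ against ‘CH7’, where all probe sets gave 20.6%). Of the leaf genes there were 3 (50%) in ‘CH7/9’ against ‘CH9’, with all 6 above 0, where all probe sets gave 11.7%. There were 2 (33.3%) in ‘CH8/9’ against ‘CH8’ and against ‘CH9’, with all 6 below 0. All probe sets gave 9.13% and 6.47% there. The linear sum of the 10 root genes was 177 to 347 in ‘CH7’, 155 to 165 in ‘CH8’, 155 to 233 in ‘CH9’, 130 to 187 in ‘CH7/8’, 171 to 178 in ‘CH7/9’ and 104 to 160 in ‘CH8/9’. In ‘CH8’ against ‘CH7’ 7 of the 10 root genes were below 0, with a median of −0.20, as were 30991 of all 54922 probe sets. Among the 7 were *LSI1* at −0.74, *LSI2* at −1.08 and *NAR2.1* at −1.07 in log2 intensity. The other 3 were above 0, with *CASP1* the highest at 0.72. The part of these root genes in the *NAAT1* level of ‘CH8’ was not tested. The linear sum of 6 leaf genes was 312 to 400 in ‘CH8/9’, 1025 to 1114 in ‘CH7/9’ and 560 to 782 in the other lines, and its part in the *NAAT1* difference between those hybrids was not tested.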

How the data were processed

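RNA of whole plants was hybridised to Affymetrix rice arrays, 2 per line. The values deposited by the authors are normalized linear intensities per probe set. The study's methods name RMA and the submitters' notes name MAS5, and which of them made these values is not settled. The design text speaks of 3 replicates, and 2 arrays per line were analysed here. No pseudocount was added before log2. Line means were fitted over the 12 arrays with limma 3.58.1 in R 4.3.3 (lmFit and eBayes), with Benjamini-Hochberg adjustment over all 54922 probe sets. The methods name SAM, which has too few permutations with 2 arrays a line. The fit was tested on simulated data. Probe sets took genes from the platform annotation, with synonyms from RefSeq: 24080 had 1 gene, 95 several and 30747 none. Where a gene had several probe sets, the one with the highest mean stood for it. Array number limits the precision.

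The members and lists were chosen with earlier results of these data known. Named were the 6 genes, each other iron gene called (up to 4 a comparison), the highest mean of each role and the 5 named genes most like *NAAT1*. *ZIP2*, *ZIP3*, *ZIP4*, *ZIP9* and *HMA2* were named outside this rule, after their values were seen. The same search for *IRT1* could not be made. Of 99 other names listed, 45 were measured, 48 matched no gene and 6 were left out for another or mixed function. Replicate arrays of a line correlated with r between 0.966 and 0.984. No sequences are shown, since none were used here.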

Additional observations from a re-analysis of the deposited data

How the results depend on the processing

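The alternatives were quantile normalization, median centring, pseudocounts, a filter on dim probe sets, array weights, a mean-dependent prior, no fold threshold, a fit of the compared lines only, an average over all probe sets of each gene, a replicate block, and each array left out. For the 5 genes of iron uptake and mugineic acid synthesis, the count of 0 called held in all 11 alternatives other than leaving out an array in each of the 3 tested comparisons, although the filter on dim probe sets leaves *NAAT1* alone of the 5. With 1 array left out it ranged from 0 to 2 in ‘CH7/9’ against ‘CH9’ and in ‘CH8/9’ against ‘CH7/9’, and from 0 to 0 in ‘CH8/9’ against ‘CH9’. The difference of *NAAT1* between ‘CH7/9’ and ‘CH9’, −0.17, turned to 0.097 without ‘CH9’ replicate 2 and 0.378 without ‘CH7/9’ replicate 1 (−0.72 without replicate 2), and that of *NAS2* to −0.015 without ‘CH7/9’ replicate 2 (2.49 without replicate 1). Of the 45 other iron genes, 2 were called in ‘CH8’ against ‘CH7’. This became 1 with a pseudocount of 10, 4 without dim probe sets (*YSL13*, *ZIP2*, *ZIP8* and *HMA2*, with fewer probe sets tested) and 1 with a replicate block (*ZIP8* in the first and last of these). It was 3 with array weights (*YSL13*, *ZIP8* and *HMA2*), and 2 in a fit of the compared lines only, where *HMA2* took the place of *YSL13*. It ranged from 0 to 4 with an array left out. It was 0 without either ‘CH7’ array or ‘CH8’ replicate 1, 1 (*NRAMP4*) without ‘CH8’ replicate 2, 4 without either ‘CH7/8’ array and 1 (*ZIP8*) without any of the others. In ‘CH9’ against ‘CH8’, array weights gave 1 call (*ZIP8*) in place of 0, and the range was 0 to 1, with *ZIP10* called without either ‘CH7/9’ array. *ZIP10* read 3.52 and 5.77 in ‘CH7/9’, a spread that enters the standard error of every comparison while both arrays are in the fit. Leaving out an array gave 0 to 2 in ‘CH7/8’ against ‘CH7’ (*YSL13* and *HMA2* without ‘CH7/8’ replicate 1), 0 to 1 in ‘CH7/8’ against ‘CH8’ (*NRAMP1* without ‘CH7/8’ replicate 2), 0 to 1 in ‘CH7/9’ against ‘CH7’ and ‘CH9’ (*ZIP10* without ‘CH7/9’ replicate 1), and 0 to 0 in ‘CH9’ against ‘CH7’ and in ‘CH8/9’ against ‘CH8’ and ‘CH9’. The labels do not say whether plants with the same replicate number were handled together. The deviations of same-numbered arrays correlated between −0.333 and 0.204 over 15 pairs of lines, with 2 over 0.1, which does not settle it. The median of all probe sets stood at 0.11 in ‘CH7/9’ against ‘CH9’ and −0.11 in ‘CH8/9’ against ‘CH7/9’, and at 0.0031 and −0.029 after quantile normalization. Levels near the bottom of the arrays, as for *YSL15* and *NAS3*, limit what differences could be seen.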
